A study of Mus musculus with 34 samples.

Results

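Mitochondrial fatty acid beta-oxidation was followed in mouse cumulus cells (CCs) through 9 genes: Cpt1a, Slc25a20, Cpt2, Acadvl, Acadl, Acadm, Hadha, Hadhb and Etfdh. They were taken by symbol from a table of reads counted per gene, in which they make up 9 of 25965 entries (25899 symbols), and all 9 had counts in each of the 34 libraries. CCs are granulosa cells in direct contact with the oocyte, which they nourish. All mice were female C57BL/6J, aged 8 weeks when a protocol began, and all were superovulated before collection. In the leptin protocol mice were injected intraperitoneally for 16 days with saline (16 C, n = 3) or with leptin at 100 μg per day (16 L, n = 5). In the diet-induced obesity protocol they ate chow diet (CD, 11% of energy from fat) or high-fat diet (HFD, 58%) for 4 weeks (n = 5 and n = 5) or 16 weeks (n = 6 and n = 7). The last 3 libraries are of low weight gainers, mice kept on HFD for 16 weeks whose weight rose little, so that the study defined this group by its response to the diet. The labels describe about 50 cells from 1 cumulus-oocyte complex per library.

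Beta-oxidation shortens fatty acids inside mitochondria and yields acetyl-CoA, NADH and reduced flavoprotein. Long-chain acyl groups first cross the mitochondrial membranes on carnitine, which requires CPT1 on the outer membrane, a translocase and CPT2 on the inner membrane. Acyl-CoA dehydrogenases of different chain-length preference then take the first oxidative step, the trifunctional protein carries out the following steps on long chains, and the electrons pass through the electron transfer flavoprotein and its dehydrogenase to ubiquinone. In the cumulus-oocyte complex this pathway is known for its role in oocyte maturation.

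Levels are given as normalized CPM, counts set relative to library size (CPM) and scaled over all 34 libraries by the TMM method (trimmed mean of M-values). Total counts per library ranged from 1104611 to 13207018 with a median of 4035575.5, and the lowest count of a member in any library was 10, for Etfdh. Some libraries stood apart. In 16 L replicate 18, markers of oviduct epithelium summed to 30705 RPM (the same unit without TMM) and those of red blood cells to 9805 RPM, and in 16 L replicates 20, 21 and 23 the oviduct markers summed to 1490, 2355 and 409 RPM, against 20.7 to 73.4 RPM in 16 C. Red blood cell markers also summed to 2549 RPM in 16 L replicate 21. In 4-week HFD replicate 5 oocyte markers summed to 405 RPM, against at most 17.4 RPM in any other library. In 16-week CD replicates 1 and 2 the normalization factors were 1.37 and 1.33, against 0.761 to 0.989 in the other 4. The factors also differed between the leptin groups without overlap, from 0.640 to 0.737 in 16 C and from 0.894 to 1.32 in 16 L. The part of this difference in the leptin results was not tested. Markers of granulosa cells were present in every library, with sums from 915 to 4944 RPM. Those of cumulus expansion summed to 40.0 RPM in 16 L replicate 18 and to 550 RPM or more in every other library. Theca and stroma markers summed to 1546 RPM in 16 L replicate 18, and those of macrophages and neutrophils to 1313 and 1552 RPM in 16 L replicates 20 and 23. In these bulk libraries fewer cells of a type and less RNA per cell cannot be told apart.

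Hadha and Hadhb encode the alpha and beta subunits of the trifunctional protein and lie head to head on chromosome 5, so the stretch between them is shown because both genes are read outward from it. In the count table Hadha (minus strand) ended 85 bases before Hadhb (plus strand) began, and GENCODE M21 annotated 0 features between them. The RefSeq start of Hadha, used for the promoters below, lies inside the gene as the count table gives it. The RefSeq starts are thus farther apart than 85 bases. The plus strand of chr5:30155163-30155247 (GRCm38.p6, sequence from RefSeq) is given with GGGCGG, the core of a GC box, in capitals.
Hadha-Hadhb gap: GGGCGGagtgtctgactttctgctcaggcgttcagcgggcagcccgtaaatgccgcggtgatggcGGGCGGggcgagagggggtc
Acadm and Etfdh were the members whose promoters held GCATGCGC, the core of the NRF1 motif, NRF1 being a factor known for genes of mitochondrial proteins. The windows are chr3:153944783-153944812 for Acadm and chr3:79628875-79628904 for Etfdh, both on the minus strand, with the core in capitals.
Acadm NRF1 core window: gggagcaggacGCATGCGCagagggccttc
Etfdh NRF1 core window: gcttctaggGCGCATGCGCacacgcgagag
Promoters of 300 bases, from 250 before to 50 after the RefSeq start, were searched on both strands for 5 motifs. GCATGCGC was in 2 of 9 members and in 2.71% of 32851 promoters, beginning 158 bases before the start in Acadm, and in Etfdh at 126 and 128 bases on overlapping matches of the strands. GGGCGG was in 7 of 9 members and 35.7% of promoters, CCAAT in 2 of 9 (Cpt1a and Etfdh) and 37.4%, and AGGTCA, the half-site of many nuclear receptors, in 3 of 9 (Cpt1a, Acadm and Acadvl) and 16.3%. The windows of Hadha and Hadhb overlap, so the GGGCGG that begins the printed gap is counted for both, and the 7 are not all separate stretches. The ERR site TCAAGGTCA, which contains AGGTCA, was in 0 of 9 members and 0.423% of promoters. These matches describe the letters of the windows and no binding was measured.

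Per kilobase of exon, over all 34 libraries, the median level was highest for Acadl (73.0 normalized CPM per kilobase), followed by Acadm (52.3), Acadvl (40.3), Cpt1a (28.9), Cpt2 (21.6), Hadhb (16.4), Hadha (11.9), Etfdh (11.3) and Slc25a20 (6.59). Each pair of neighbours in this order differed by less than the larger of their SDs over libraries. The difference between Acadl and Acadm was above the SD of Acadl (17.7) and below that of Acadm (44.9). With the length of the longest transcript in place of all exons Acadm came first and Cpt2 took the eighth place. The order also differed between groups. By group median per kilobase Acadm was first in the 16-week groups, with 109 against 65.2 for Acadl in CD, 84.6 against 71.6 in HFD and 149 against 78.4 in the low weight gainers. Slc25a20 was not the last in 16 C, 16-week HFD and the low weight gainers, where Hadha was lower, or in 16 L, where Hadhb and Etfdh were. Among related genes Cpt1b, the muscle isoform of CPT1, had at most 9 counts in a library, and Cpt1c, the brain isoform, had a median of 2.75 normalized CPM per kilobase, so Cpt1a was the main CPT1 gene by level. Acads, the short-chain acyl-CoA dehydrogenase, had a median of 16.5 normalized CPM per kilobase. Etfa and Etfb, the subunits of the electron transfer flavoprotein, had medians of 262 and 120.2 normalized CPM per kilobase.

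**Figure D1:**
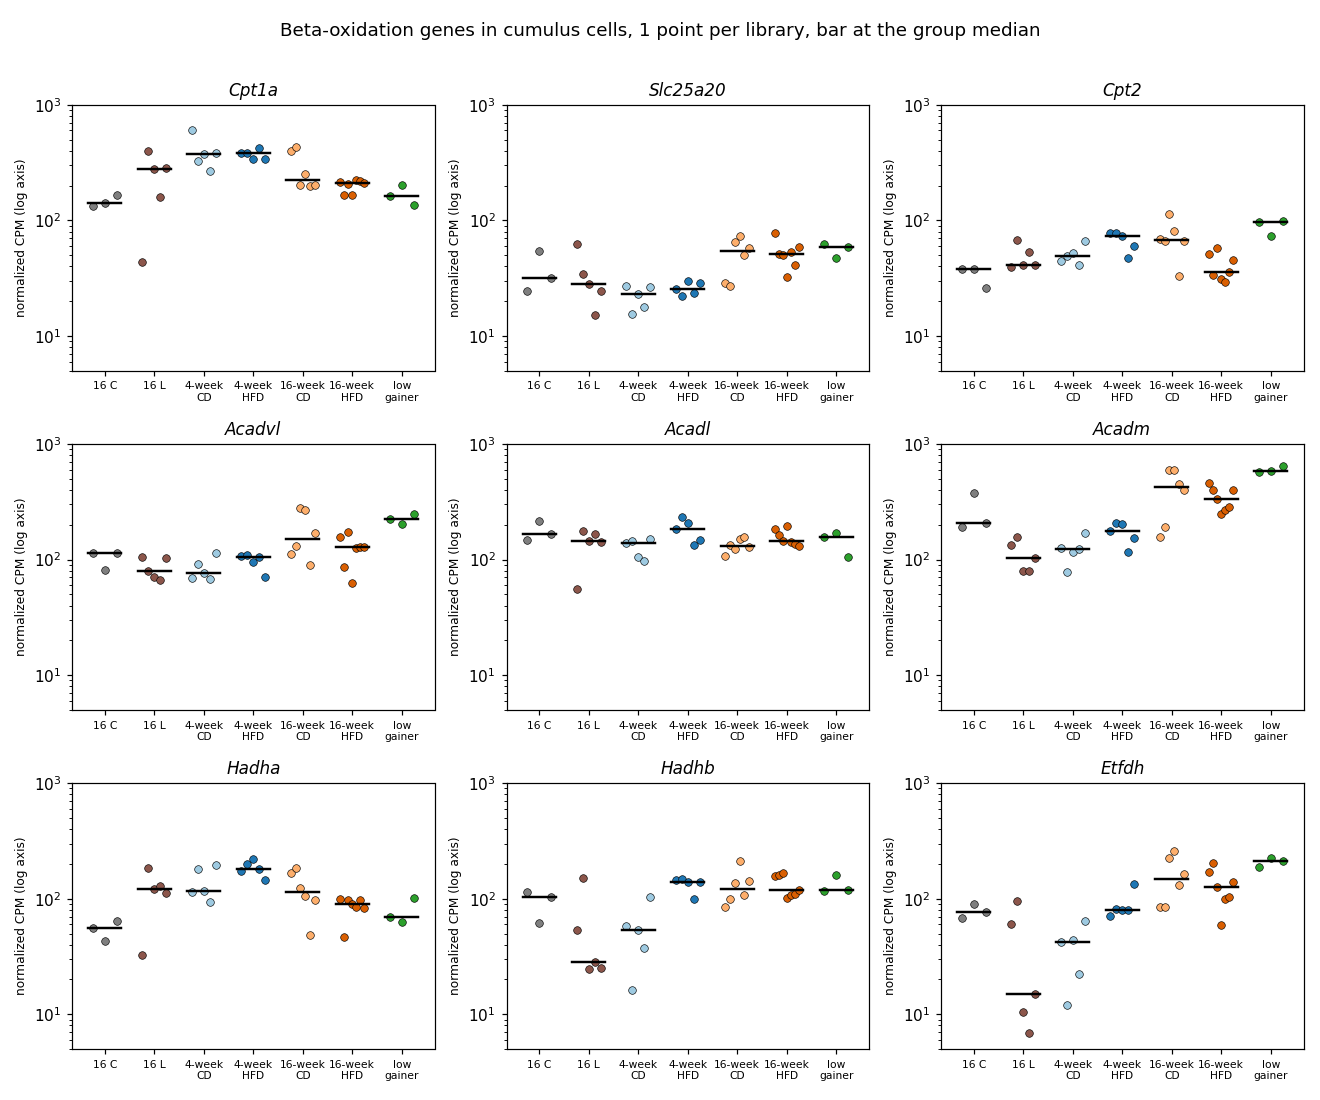
Normalized CPM (log axis) of the 9 genes in each of the 34 libraries by group, 1 point per library, with a bar at the group median. Acadm lies between 576 and 652 in the 3 low weight gainers and between 78.8 and 209 in the 4-week libraries, and Etfdh is at 6.90 to 14.9 in 3 of the 5 16 L libraries.

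Of the carnitine shuttle genes Cpt1a spanned 13.9-fold from the lowest to the highest library, Slc25a20 5.14-fold and Cpt2 4.35-fold. The wider span of Cpt1a rests on 16 L replicate 18 (43.5 normalized CPM), the library richest in oviduct markers. The next lowest was 16 C replicate 1, with 134. Etfdh had the widest span of the 9 genes, 37.5-fold. Cpt1a, which makes the acylcarnitine and is the main control point of entry, had 605, 329, 377, 269.7 and 381 normalized CPM in 4-week CD replicates 1, 2, 7, 8 and 11, and 382, 382, 337, 423 and 338 in 4-week HFD replicates 3, 4, 5, 13 and 14. At 16 weeks it ranged from 197 to 431 in CD (median 225) and from 166 to 222 in HFD (median 212), and it was 162, 203 and 137 in the low weight gainers. The 16-week CD range was set by replicates 1 and 2, with 399.7 and 431, while the other 4 lay between 197 and 249.9. Slc25a20, the carnitine-acylcarnitine translocase, had the lowest median per kilobase over all 34 libraries, with 15.5 to 29.7 normalized CPM in the 4-week libraries and 26.8 to 78.0 in those of 16 weeks. Cpt2, which frees the acyl-CoA inside the mitochondrion, ranged from 29.4 to 58.0 normalized CPM in 16-week HFD (median 35.8) and was 96.2, 72.9 and 99.1 in the low weight gainers. Weeks on the diet and experiment cannot be told apart in the differences between 4-week and 16-week libraries, so these were not tested.

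In 4-week HFD, which asked how CCs differed early in obesity, 2 of the 9 genes rose against 4-week CD. They were Hadhb and Etfdh, and 0 fell. Among all genes tested 4.26% were past the same threshold (adjusted p under 0.05, edgeR) and 1.19% were past it and higher. At an unadjusted p under 0.05 there were the same 2, against 24.3% of all genes, a count near that share. DESeq2 also called these 2, against 11% of all genes. Both edgeR calls lay close to the threshold, and 8 of 9 log2 fold changes were positive, with a median of 0.39 against -0.0099 for all genes.
Hadhb had 57.8, 16.1, 53.6, 37.3 and 103 normalized CPM in CD replicates 1, 2, 7, 8 and 11, and 146, 149, 140.2, 100.1 and 139.5 in HFD replicates 3, 4, 5, 13 and 14. All HFD libraries but replicate 13 were above all CD libraries. The mean was 135 ± 20.0 in HFD against 53.5 ± 31.9 in CD (SD, n = 5 each), a log2 fold change of 1.32 (SE 0.34, 2.50-fold, 95% confidence interval 1.51 to 4.12, adjusted p = 0.0409, edgeR).
Etfdh, the dehydrogenase that passes electrons from the flavoprotein to ubiquinone, had 41.9, 11.9, 43.8, 22.4 and 64.7 normalized CPM in the same CD libraries and 71.3, 81.1, 80.6, 79.8 and 134 in HFD. The groups did not overlap. The means were 89.4 ± 25.4 and 36.9 ± 20.5 (SD, n = 5 each), a log2 fold change of 1.26 (SE 0.34, 2.39-fold, interval 1.45 to 3.96, adjusted p = 0.0490, edgeR).
CD replicate 2 was the lowest library for both genes, with 27 counts of Hadhb, and had the lowest total of the 10 libraries (1363065) and the highest sum of oviduct markers (151 RPM). Its mitochondrial share was 0.828%, against 2.18% to 7.72% in the other 9 libraries. Without it the log2 fold changes were 1.11 and 1.06 (adjusted p = 0.0634 and 0.0830, edgeR). The HFD libraries were also deeper, with totals from 3945350 to 12641896 against 1363065 to 6608945, and the part of depth, mitochondrial share and these markers in the result was not tested. Leaving out each library in turn, Hadhb and Etfdh were called in 1 of 10 fits each, that without CD replicate 11 (14.4% of all genes called), with adjusted p-values up to 0.128 and 0.146, and with all 34 libraries in one fit neither was called (adjusted p = 0.0921 and 0.188). The other 7 genes were not called. Acadl, the long-chain acyl-CoA dehydrogenase, came nearest. It had 140.1, 146, 106, 96.7 and 149.7 normalized CPM in CD and 184, 235, 209, 134 and 147 in HFD, where 3 libraries lay above all CD libraries, with a log2 fold change of 0.49 (SE 0.23, adjusted p = 0.206, edgeR).

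**Figure D2:**
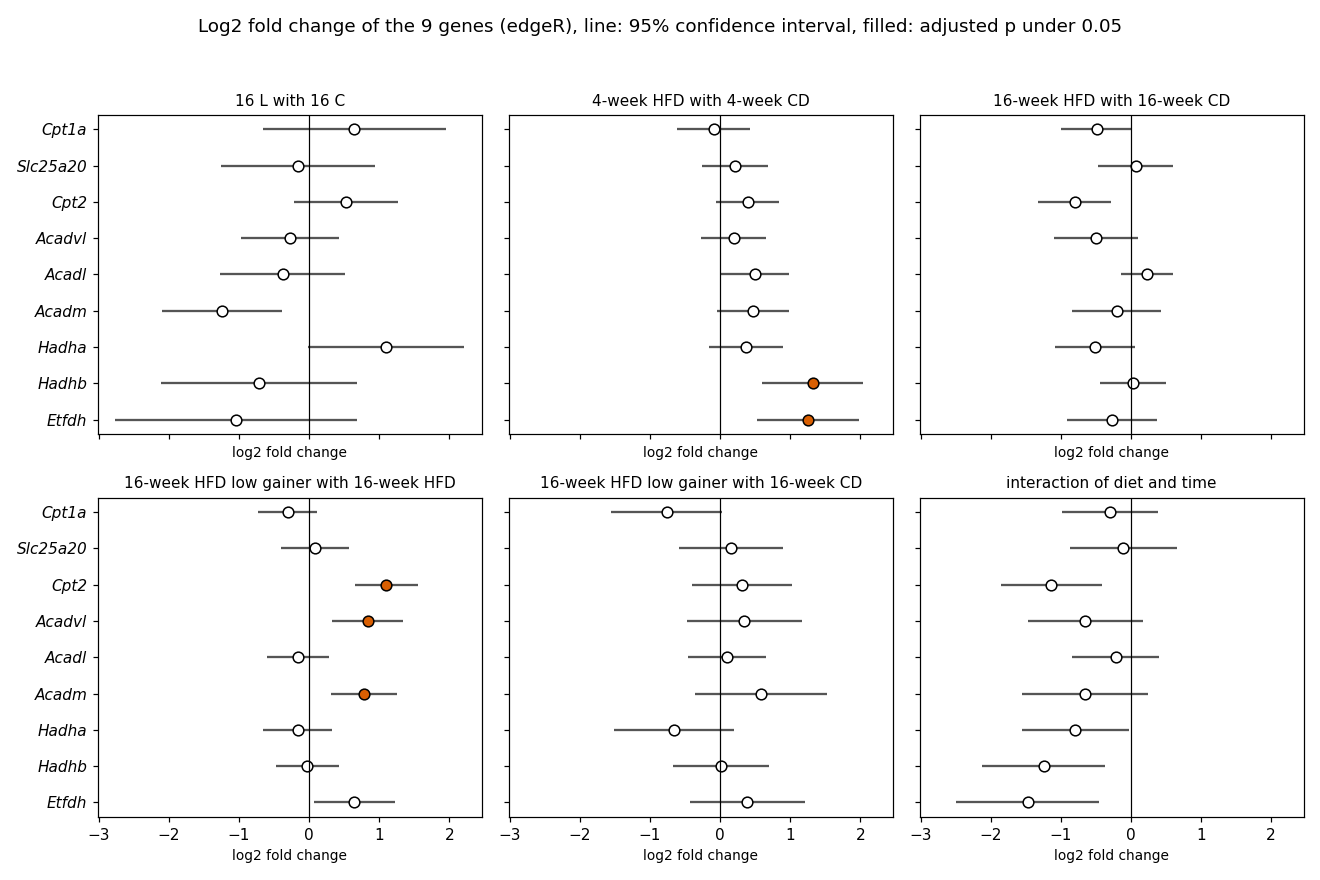
Log2 fold change of each gene in the 5 comparisons and the interaction (edgeR), with lines for the 95% confidence interval and filled points for an adjusted p under 0.05. Filled points are Hadhb and Etfdh in 4-week HFD, and Cpt2, Acadvl and Acadm in the low weight gainers against 16-week HFD.

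Hadha, the partner of Hadhb, was not called in 4-week HFD. It had 115, 182, 116, 94.3 and 197 normalized CPM in the CD libraries, against 175, 201, 221, 181 and 145 in those of HFD, with overlapping groups and a log2 fold change of 0.37 (SE 0.25, adjusted p = 0.361, edgeR). Within a library the ratio of Hadhb to Hadha counts does not depend on normalization. Even so, its log2 value was negative in every library with a normalization factor above 1 and positive in every other library. Mean log2 ratios also differed between the control groups, 0.75 in 16 C, -1.58 in 4-week CD and 0.17 in 16-week CD. The part of library composition in the ratio was not tested. In the 4-week libraries the log2 ratio was -0.998, -3.50, -1.12, -1.34 and -0.94 in CD replicates 1, 2, 7, 8 and 11, and -0.26, -0.43, -0.66, -0.85 and -0.056 in HFD. All 5 HFD libraries lay above all 5 CD libraries, with means of -0.45 ± 0.32 and -1.58 ± 1.08 (SD). The difference of 1.13 had a p of 0.00794 in a two-sided exact permutation test, the smallest this design allows, and 0.0397 adjusted over 5 comparisons. This ratio was chosen after the values were seen and rests in part on the same counts as the Hadhb call. Without CD replicate 2 the difference was 0.65, and the groups did not overlap.
In 16 L the ratio was 0.72, -0.30, -2.32, -2.20 and -2.13 in replicates 18, 19, 20, 21 and 23, against 1.05, 0.54 and 0.67 in 16 C. Replicates 19, 20, 21 and 23 were below all controls and replicate 18 was not. The means of -1.25 ± 1.38 and 0.75 ± 0.26 (SD, n = 5 and n = 3) differed with a p of 0.0714 in the exact permutation test, where the smallest possible is 0.0179. The other 3 comparisons gave p-values of 0.288, 0.725 and 0.321 in the same test.

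**Figure D3:**
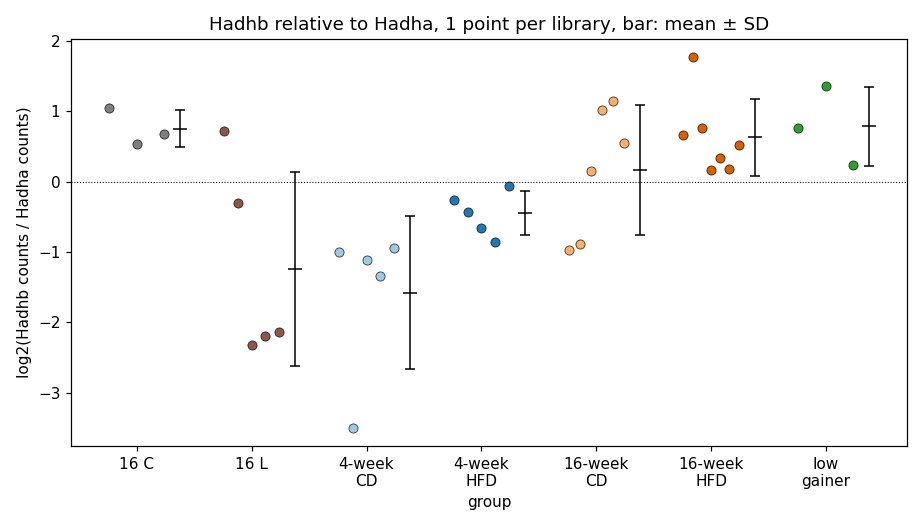
Log2 ratio of Hadhb to Hadha counts in each library by group, 1 point per library, with bars for the mean and SD beside the points. All 5 4-week HFD libraries lie above all 5 4-week CD libraries, and 3 of 5 16 L libraries lie between -2.32 and -2.13.

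In 16 L, which asked what leptin does without obesity, 0 of 9 genes passed the test against 16 C, where 8.56% of all genes were called. Acadm alone had an unadjusted p under 0.05, as did 32.4% of all genes, and DESeq2 called 1 (also Acadm) where it called 22.4% of all genes. With 3 against 5 libraries the 95% intervals were wide, from -0.020 to 2.21 for Hadha and from -2.76 to 0.69 for Etfdh on the log2 scale. The median gene lay 0.27 higher in 16 L on the log2 scale after TMM normalization, and fold changes are read against that shift.
Acadm, the medium-chain acyl-CoA dehydrogenase, had 193, 379 and 207 normalized CPM in 16 C replicates 1, 2 and 3 and 134, 155, 79.9, 79.3 and 104 in 16 L replicates 18, 19, 20, 21 and 23. All 16 L libraries were below all controls. Its log2 fold change was -1.24 (SE 0.38, adjusted p = 0.0678, edgeR), and it was -1.42 (adjusted p = 0.00964) without replicate 18, the library richest in oviduct markers. It was called in 2 of 8 fits that left out 1 library, those without replicate 18 or 19, in which 41.8% and 14.4% of all genes were called.
Hadha had a positive log2 fold change, with 55.3, 42.7 and 64.5 in 16 C and 32.7, 186, 122, 129.7 and 111 in 16 L. Replicate 18 lay below all controls and the other 4 above them. The log2 fold change was 1.10 (SE 0.50, adjusted p = 0.160, edgeR) and without replicate 18 it was 1.26 (adjusted p = 0.00484).
Hadhb and Etfdh split the 16 L libraries. In replicates 20, 21 and 23 Hadhb had 24.4, 28.3 and 25.3 normalized CPM and Etfdh 10.5, 6.90 and 14.9, whereas replicates 18 and 19 had 53.9 and 151 for Hadhb and 60.6 and 96.2 for Etfdh. The controls had 62.1 to 114 and 67.5 to 90.9. The log2 fold changes, -0.71 for Hadhb (SE 0.63, adjusted p = 0.451, edgeR) and -1.04 for Etfdh (SE 0.77, adjusted p = 0.371), were within this spread. Replicate 18 was also below all controls for both genes. All 4 libraries had more oviduct marker reads than the controls, as given above, whereas replicate 19, the highest for both genes, had 14.1 RPM of them. Mitochondrial genes took 4.71% of counts in replicate 19, against 0.435% to 0.654% in the other 16 L and 0.335% to 0.628% in 16 C. The part of these differences in the result was not tested. With limma-voom and sample quality weights 7 of 9 genes were called in 16 L, as were 63.8% of all genes, and the sign of Slc25a20, Acadl, Acadvl and Hadhb turned when libraries were scaled by total counts alone.

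At 16 weeks 0 of 9 genes passed the test in HFD against CD, where 0.0276% of all genes were called. At an unadjusted p under 0.05 there was 1 (Cpt2), against 25.3% of all genes, and DESeq2 called the same gene, against 9.72% of all genes. The first count is below the share over all genes and the second is near it.
Cpt2 ranged from 32.9 to 113 normalized CPM in CD (median 67.7) and from 29.4 to 58.0 in HFD (median 35.8). The HFD libraries overlapped with CD through CD replicate 9 alone, the other 5 CD libraries having 65.8 or more. The log2 fold change was -0.80 (SE 0.25, adjusted p = 0.0760, edgeR) and, without replicate 9, -0.95 (adjusted p = 0.0153), a fit in which 20.5% of all genes were called.
Hadhb differed little, with a median of 122 in CD and 119 in HFD, a log2 fold change of 0.024 and a 95% interval from -0.45 to 0.49. Acadm, with a log2 fold change of -0.21 (interval -0.84 to 0.43), was at 156 and 192 in CD replicates 1 and 2 and between 401 and 602 in the other 4. Without these 2 libraries, which also had the highest Cpt1a of the group, 0 of 9 genes were called, and the log2 fold change of Cpt2 was -0.78 (adjusted p = 0.408).

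In the low weight gainers 3 of 9 genes rose against 16-week HFD: Cpt2, Acadvl and Acadm, which stand for entry into the mitochondrion and for the first step on very-long and medium chains. None fell. Among all genes 20.7% were called and 10.8% were called and higher. At an unadjusted p under 0.05 there were 4 members (Etfdh added), against 36.3% of all genes. DESeq2 called the same 3, against 25.3% of all genes. Both counts are near the shares over all genes.
Cpt2 had 96.2, 72.9 and 99.1 normalized CPM in low weight gainer replicates 21, 22 and 23, all above the highest of 7 HFD libraries (58.0). Its log2 fold change was 1.10 (SE 0.21, 2.14-fold, interval 1.57 to 2.92, adjusted p = 0.00304, edgeR), and it was called in 10 of 10 fits that left out 1 library.
Acadm had 576, 584 and 652, against 246 to 459.7 in HFD (median 331), with a log2 fold change of 0.78 (SE 0.22, adjusted p = 0.0203). Acadvl had 224, 202 and 246, against 62.9 to 173 (median 128), with 0.83 (SE 0.24, adjusted p = 0.0228). In both genes the groups did not overlap. Their calls were less stable, in 7 and 8 of 10 such fits: Acadm was lost without any one of the low weight gainers, and Acadvl without replicate 21 or 23. The share of all genes called was lower in these fits too, 9.94%, 12.6% and 5.19% without replicates 21, 22 and 23. With all 34 libraries in one fit Cpt2 alone was called.
Acadvl overlaps Dvl2 on the opposite strand by 2119 bases. Since the strand used in counting is not given in the sources used here, reads of this stretch cannot be told apart, and Dvl2 also rose (log2 fold change 0.72, adjusted p = 0.0430, edgeR).
Etfdh had 189.8, 225 and 210.4 in the low weight gainers, and only HFD replicate 10 (202) reached into that range, with a log2 fold change of 0.65 (SE 0.27, adjusted p = 0.0971). Without that library, in which oviduct markers summed to 415 RPM, it was 0.82 (adjusted p = 0.0274). Etfdh was also called with limma-voom (0.73, adjusted p = 0.0210) and with scaling by total counts (0.82, adjusted p = 0.0370). In these fits 29.3% and 19.4% of all genes were called. Cpt1a, Acadl, Hadha and Hadhb had negative log2 fold changes, from -0.31 to -0.028, and none was called. Vcan, Ptgs2 and Btc of the cumulus expansion markers were lower in the low weight gainers, with list sums of 1018 to 1039 RPM against 1001 to 2729 RPM in HFD. Mitochondrial genes took 0.337% to 0.614% of counts there, against 0.786% to 1.53% in HFD. The part of these differences in the result was not tested.
Against 16-week CD 0 of 9 genes were called in the low weight gainers, where 0.00861% of all genes were. There were 0 at an unadjusted p under 0.05 and 0 with DESeq2, against 11.2% and 2.15% of all genes. Cpt2 had a log2 fold change of 0.32 (interval -0.40 to 1.03), Acadm of 0.59 (-0.36 to 1.53) and Acadvl of 0.35 (-0.47 to 1.16). These comparisons share the HFD libraries or the low weight gainers with those above.

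Whether the effect of HFD differed between 4 and 16 weeks was tested as an interaction. None of the 9 genes passed (0 of 9, against 3.66% of all genes), at an unadjusted p under 0.05 there were 4 (23.4% of all genes), and DESeq2 called 3 (Cpt2, Hadhb and Etfdh, where 9.52% of all genes were called). All 9 estimates were negative, with a median of -0.65 against -0.086 for all genes. The estimates were -1.14 for Cpt2 (SE 0.35, adjusted p = 0.0588, edgeR), -1.47 for Etfdh (SE 0.50, adjusted p = 0.0773) and -1.24 for Hadhb (SE 0.43, adjusted p = 0.0818). The 4-week and 16-week fits enter this contrast, so it is not a further observation of either.

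Correlations between members were computed across libraries. Over the 34 libraries, with group means removed from log2 CPM, 8 of 36 pairs had a positive Pearson r at an adjusted p under 0.05 (permutation within groups) and 0 a negative one. By Spearman rho in the same permutation test, Cpt1a and Hadha (adjusted p = 0.147), Cpt2 and Acadvl (0.0524) and Cpt2 and Hadha (0.0870) did not pass. Slc25a20 and Hadhb passed by rho alone (0.0497). The lowest Pearson r of the 8 pairs was 0.53, a value reached by 9 of the 36 pairs (25%) and by 5.76% of all pairs among 13236 genes. The median r was 0.24 for the members and 0.0065 for all pairs. These shares are a description with no test, since pairs share genes and libraries. Hadhb and Etfdh had the highest Pearson r, 0.84 (rho = 0.79, permutation p = 1e-05, the smallest that 100000 permutations can give, adjusted p = 0.00018), and leaving out the 2 libraries most distant from the median Hadhb level gave r = 0.80. It was 0.84 in the leptin experiment, 0.90 in the 4-week and 0.84 in the 16-week experiment.
Slc25a20 and Acadm followed with r = 0.79 (rho = 0.80, adjusted permutation p = 0.00036), Slc25a20 and Etfdh with 0.76 (rho = 0.81, 0.00018), and Acadm and Etfdh with 0.71 (rho = 0.76, 0.00024). Without the 2 farthest libraries r was 0.76, 0.75 and 0.71, and within the 3 experiments it lay between 0.57 and 0.90. Cpt1a and Hadha had r = 0.70, but 0.12 without the 16 L libraries and 16-week CD replicates 1 and 2, so that relation rests on those libraries. The subunit genes Hadha and Hadhb, 85 bases apart in the count table, had r = 0.013 (rho = -0.16, permutation p = 0.963). It was 0.17, 0.020 and -0.28 in the leptin, 4-week and 16-week experiments.
As a description with no test, the genes whose levels followed the mean of the 9 members most closely over the 34 libraries were Tcp1 (Pearson r = 0.88), Asah1 (0.85), Maged2 (0.84), Pttg1ip (0.82) and RP23-190G10.4 (0.81). For the mean of Slc25a20, Acadm, Hadhb and Etfdh, a search not planned beforehand, they were Tmem59 (0.93), Cdc16 (0.90), Clcc1 (0.90), Leprot (0.90) and Hspa14 (0.89). None of these genes is in the pathway lists below, so high correlation with these members was not confined to the pathway. Both genes of a pair were read from the same libraries, which differ in depth and composition. The part of this in the correlations was not tested.

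**Figure D4:**
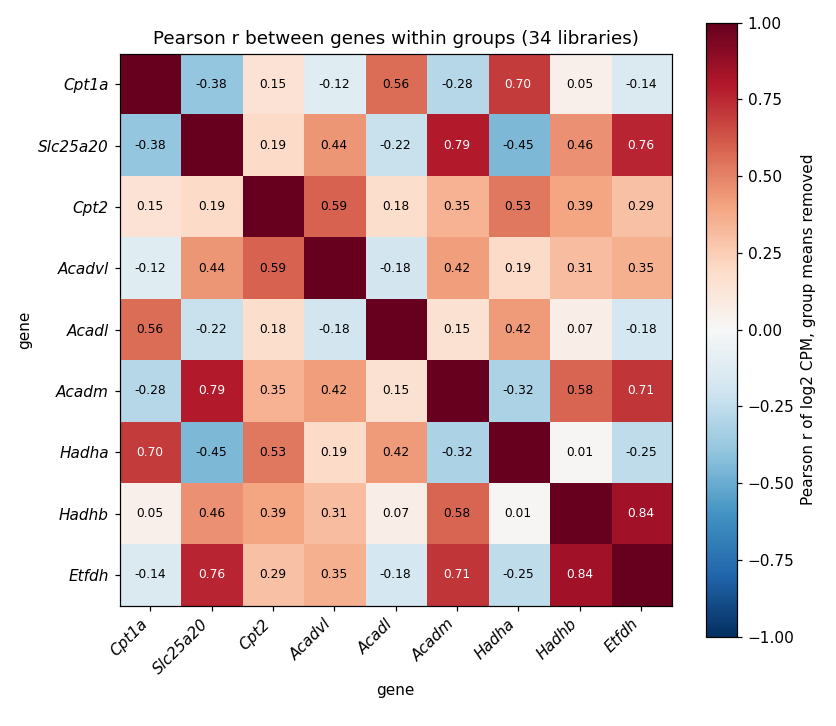
Pearson r between the 9 genes over 34 libraries, on log2 CPM with group means removed, colored from -1 to 1. Slc25a20, Acadm, Hadhb and Etfdh share r from 0.46 to 0.84, and Hadha and Hadhb have 0.013.

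Other genes of the pathway were counted by list, with 94 of 95 in the table. In 16 L, where 8.56% of all genes were called, of 12 tested genes of fatty acid uptake and activation 2 were higher and 1 was lower. Acsl4, a long-chain acyl-CoA synthetase, fell by 3.46 on the log2 scale, from 9759 ± 3168 to 898 ± 276 normalized CPM (adjusted p = 0.0119, edgeR), while the transport proteins Slc27a1 and Slc27a4 rose by 1.73 and 2.40. Ucp2, a mitochondrial carrier, rose by 3.45. Of the 17 other genes of mitochondrial beta-oxidation tested, none passed in either direction. There were 2 at an unadjusted p under 0.05 and 2 with DESeq2, against 32.4% and 22.4% of all genes.
In 4-week HFD, where 4.26% of all genes were called, Abcd2, a peroxisomal importer of fatty acyl-CoA, rose by 1.37 (1 of 11 peroxisomal genes tested). Txnip rose by 1.58 (1 of 10 listed PPAR targets). Of the 18 other mitochondrial genes tested 0 were called, with 4 at an unadjusted p under 0.05 and 2 with DESeq2, against 24.3% and 11% of all genes.
In the low weight gainers against 16-week HFD 20.7% of all genes were called, and the counts of this comparison are read against that share. Of 13 uptake and activation genes 4 were higher (Slc27a1, Slc27a3, Acsl5 and Acsl1) and 2 lower (Acsl4 and Cd36, a fatty acid translocase). Slc27a1 rose by 1.57 and Acsl4 fell by 1.10. Cpt1c and Crat, carnitine acyltransferases, rose by 1.45 and 0.87 (2 of 4 tested). Of 15 regulators Rxrb and Lonp1 were higher and Sirt1 and Prkaa2 lower, Mut, of the propionyl-CoA branch, fell by 0.68, and Ucp2 rose by 1.28. Of the 16 other mitochondrial genes tested, 0 were called there, with 2 at an unadjusted p under 0.05 and 1 with DESeq2, against 36.3% and 25.3% of all genes. In 16-week HFD against CD, and in the low weight gainers against CD, 0 genes of these lists were called. At an unadjusted p under 0.05 there were at most 4 and 2 per list, against 25.3% and 11.2% of all genes. With DESeq2 there were at most 2 and 0, against 9.72% and 2.15%. In 16-week HFD the other carnitine shuttle list had 3 and 2 of 4 tested genes at these cuts. Its median log2 fold change was -1.10, against -0.049 for all genes. The uptake and activation list had 4 and 1 of 13, and the regulators 3 and 2 of 15. In the interaction, where 3.66% of all genes were called, Abcd2, Hsd17b4 (peroxisomal) and Ucp2 were lower, by 1.82, 1.20 and 3.50 on the log2 scale.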

How the data were processed

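Transcripts of about 50 CCs per library, 1 library per mouse, were amplified by Smart-seq2 with oligo-dT priming and PCR without molecular identifiers, and made into libraries with Nextera XT. The submitters' processing notes name Trim Galore 0.4.2, HISAT2 2.0.5 and GRCm38. The authors deposited raw counts per gene in 1 table. The counting program, annotation and use of strand are not given in the sources used here. All table columns matched a sample by title (0 were of other samples), and no pair of libraries of a group held identical counts.
Groups were compared with edgeR 4.0.16 (quasi-likelihood test, TMM, filterByExpr, R 4.3.3), with the libraries of each comparison in one fit, except that the interaction used the 4 CD and HFD groups. Values of p were Benjamini-Hochberg adjusted over all genes tested, with a threshold of 0.05, and the procedure was tested on simulated data. Correlations used log2(normalized CPM + 1) and 100000 permutations within groups. Total counts per library limit the precision of low genes, and intervals do not cover unequal PCR.
The members and gene lists were chosen with earlier results of these data known. Named genes were the 9 members, up to 6 called genes per pathway list and comparison, and CPT1 isoforms, Acads, Etfa and Etfb by level. Also named were the 5 genes most correlated with the mean of the members, and with that of Slc25a20, Acadm, Hadhb and Etfdh. Alternatives were DESeq2 1.42.0, limma-voom (limma 3.58.1), other scalings and filters, all 34 libraries in one fit, a replicate block, and leaving out each library. Leaving out 16-week CD replicates 1 and 2 together, the correlation without 16 L and these, and the ratio test were added after the data were seen.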

Additional observations from a re-analysis of the deposited data

Results flagged for a closer look

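Within groups of 4 to 10 libraries, the highest and lowest library of each member was compared with its nearest neighbour by Dixon's ratio. Of 45 such groups 4 held a library past the 95% limit, where chance alone gives about 1 in 20. Acadl in 16 L replicate 18 was at 55.1 normalized CPM, with the nearest library at 143, and this was the library with the most oviduct and red blood cell markers. Hadha in 16-week HFD replicate 10 was at 47.0, with the nearest at 82.9. In 4-week HFD, Hadhb in replicate 13 was at 100.1, with the nearest at 139.5, and Etfdh in replicate 14 was at 134, with the nearest at 81.1. Without replicate 14 the log2 fold change of Etfdh in 4-week HFD was 1.04 and was not called.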

How the results depend on the processing

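Between 1 and 7 members were called under some alternatives where the reported count was 0. In 16 L (reported 0) there were 1 with DESeq2, 7 with limma-voom, 2 with scaling by total counts, 2 with all 34 libraries in one fit and 0 to 2 with each library left out. In 4-week HFD (reported 2) there were 6 with limma-voom, 1 each with RLE normalization, scaling by total counts and no filter, 0 with all 34 libraries, and 0 to 2 with a library left out. Of all genes 34.6% were called there with limma-voom, 4.25% with RLE, 5.61% with total counts and 2.19% with no filter. In 16-week HFD (reported 0) there was 1 each with DESeq2, total counts and all 34 libraries, and 0 to 2 with a library left out. In the low weight gainers against HFD (reported 3) there were 4 with limma-voom and with total counts (Etfdh added), 1 with all 34 libraries, and 1 to 4 with a library left out. Of all genes 29.3% were called there with limma-voom and 19.4% with total counts. In the interaction (reported 0) there were 3 with DESeq2, 7 with limma-voom, 1 with RLE, 3 with total counts, 1 with at least 10 counts in every library, and 0 to 3 with a library left out. Against CD the low weight gainers had 0 throughout. Over all genes, 1004 calls in 16 L became 7474 with limma-voom, 2628 with DESeq2, 3966 with total counts, 504 with no filter and 4384 with all 34 libraries, and between 30 and 4635 with a library left out. The 499 calls in 4-week HFD became 4052, 1290 and 69 with limma-voom, DESeq2 and all 34 libraries, and between 8 and 1700 with a library left out. The 3 calls in 16-week HFD became 1056 with DESeq2, 1622 with total counts, 1258 with all 34 libraries, and between 1 and 2222 with a library left out, and the 2330 in the low weight gainers against HFD became 487 with all 34 libraries, and between 596 (without low weight gainer replicate 23) and 2732 with a library left out. The 448 in the interaction became 1165 with DESeq2, 2289 with limma-voom, 605 with RLE, 873 with total counts, 454 with at least 10 counts in every library, 157 with all 34 libraries and 13 with the replicate block, and between 69 and 1685 with a library left out. The 1 in the low weight gainers against CD became 250 with DESeq2, 214 with limma-voom and 7 with all 34 libraries.

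Signs turned for log2 fold changes that were not called. With scaling by total counts, which moved the median of all genes to 1.07 in 16 L, Slc25a20 was 0.58, Acadl 0.51, Acadvl 0.50 and Hadhb 0.046 in 16 L. Slc25a20 was -0.21, Acadl -0.11 and Hadhb -0.29 in 16-week HFD, Acadl 0.0072, Hadha 0.0025 and Hadhb 0.13 in the low weight gainers against HFD, and Acadl -0.10 and Hadhb -0.16 against CD. With limma-voom Slc25a20 was -0.12 and Hadhb -0.17 in 16-week HFD, and Hadhb -0.16 in the low weight gainers against CD. With at least 10 counts in every library Hadhb was -0.030 in 16-week HFD, 0.043 in the low weight gainers against HFD and -0.0089 against CD, and with all 34 libraries in one fit it was 0.013 against HFD. Without 16-week CD replicates 1 and 2, chosen after seeing the data, Slc25a20 was -0.19 and Hadhb -0.13 in 16-week HFD, -0.11 and -0.17 in the low weight gainers against CD, and Cpt1a 0.030 in the interaction. With each library left out, Slc25a20 ranged from -0.64 to 0.26 in 16 L, from -0.064 to 0.20 in 16-week HFD, from -0.0055 to 0.20 in the low weight gainers against HFD and from -0.25 to 0.026 in the interaction. Hadhb ranged from -0.048 to 0.21, from -0.18 to 0.067 and, against CD, from -0.099 to 0.21, Acadl from -0.29 to 0.034 against HFD, and Cpt1a from -0.19 to 0.12 in 4-week HFD. The ratio of Hadhb to Hadha ranged from -0.13 to 0.43 in the low weight gainers against HFD, and the correlation of Hadha and Hadhb was -0.28 in the 16-week experiment alone. The cause was not tested.

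With a replicate block over the numbers that 4-week and 16-week libraries share (14 libraries), 0 members were called in the interaction and Slc25a20 was 0.13. The deviations of same-numbered libraries had correlations from -0.27 to 0.13, so no common deviation was seen. Whether these libraries share more than a number cannot be told from this.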
